A study of Mus musculus with 8 samples.

Results

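The mitosis genes are 35 genes that act between the end of DNA replication and the separation of daughter cells: the G2/M cyclins and their kinase, the mitotic kinases, the spindle checkpoint, centromere and kinetochore proteins, spindle motors and microtubule binding proteins, and the proteins of cytokinesis. They were chosen by name. Every probe on the arrays whose RefSeq accession maps to 1 of these symbols was taken, which gave 50 probes for 35 genes. Of the 35, 34 had a probe above background and were among the 13982 genes tested, out of 20887 genes named by a probe. Aurkb was the member left out: on none of the 8 arrays was its 1 probe well above background. All 34 others were above background in both groups, and 31 of them on all 8 arrays. Each of the remaining 3 (Ccnf, Cdca3 and Kif23) missed that level on the WT1 array alone.

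A dividing cell makes most of these transcripts late in its cycle. In mammals, the DREAM complex holds such genes down in resting cells, and the MuvB proteins together with B-Myb and FOXM1 switch them on as cells approach mitosis. Cyclin B with CDK1 then starts mitosis, and the anaphase promoting complex ends it by marking cyclins and securin for destruction. Because a resting cell has little of these mRNAs, their level in a tissue is widely used as a readout of how many of its cells are dividing. In the fetal kidney, nephron progenitors under the capsule, ureteric bud tips, stroma and vessels all divide, whereas cells of maturing tubules divide less.

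The samples were pairs of whole kidneys of C57BL/6 mouse embryos at embryonic day 16.5, with 4 wildtype controls (WT1 to WT4) and 4 embryos that lack Dot1, taken here as the histone H3 methyltransferase gene Dot1l, in nephron progenitor cells that express Six2 (KO1 to KO4). The red dye (Cy5) carried a sample and the green dye (Cy3) the RNA of WT1 on each of the 8 arrays, so that every value below is a log2 ratio of a sample over this common reference, unless it is named as a difference between groups or a signal. The deletion concerns 1 lineage of a mixed organ; the Cre driver, and whether controls carried it, are not given in the sources used here. In such whole-organ RNA, fewer dividing cells and less of an mRNA per dividing cell cannot be told apart.

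Several arrays and samples stood apart before any mitosis gene was considered. WT1 and KO1 had a high background: their red negative controls read 1361 and 478.2 units (medians), where the remaining 6 arrays read 58 to 61. Their green signals, although from the same RNA as all others, also matched those of the 6 arrays less well (median r over probes 0.558 and 0.900) than the 6 matched each other (0.996 to 0.997). Results are therefore also given without WT1 and KO1. On the 1 slide used, row 1 held the WT samples and row 2 the KO samples, so slide row and group cannot be told apart. The Dot1l probe did not pass the test (difference 0.03 ± 0.08, SE; limma adjusted p = 0.924), and its place relative to the deletion was not analysed here. The Y-linked gene Ddx3y had log2 ratios of 2.31 to 3.19 on the KO arrays and 3.29 on WT2, against -0.11 to 0.08 on WT1, WT3 and WT4, so sex was not balanced between the groups.

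A promoter element that many of these genes share is known from earlier work on the cell cycle, and promoters are shown first for that reason. The cell cycle genes homology region (CHR) is a short element, TTTGAA or more rarely TTCGAA, bound by the MuvB core of DREAM and of the B-Myb complex. The CCAAT box, bound by NF-Y, often lies upstream of it. RefSeq promoters of build GRCm38.p6 covering 250 bases before to 50 after the gene's start were found for 30 of the 35 members (the 5 others are Aurkb, Ccna2, Foxm1, Kif20a and Tpx2). Below are 13 of these promoters, from 120 bases before to 30 bases after the start, each written 5′ to 3′ on the gene's strand. They include the member with the lowest p in the comparison (Kif2c). Each of them holds a CHR, and the members without one, named below, are not among them. Of the role groups described further on, the mitotic kinases, the spindle microtubule binding genes, and Foxm1 with Cdca3 are not shown. The set therefore does not represent all members. In Kif2c and Mki67 the CHR letters begin more than 50 bases before the start. Capitals mark both forms of the CHR and the CCAAT box on either strand. A CHR on the other strand reads TTCAAA, and a CCAAT box there begins with ATTG and ends with a further G.
Ccnb2 at chr9:70421525-70421674, minus strand: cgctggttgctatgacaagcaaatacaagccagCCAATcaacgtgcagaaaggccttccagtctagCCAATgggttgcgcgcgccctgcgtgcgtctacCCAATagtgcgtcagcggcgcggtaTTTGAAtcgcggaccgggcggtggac
Cdk1 at chr10:69352883-69353032, minus strand: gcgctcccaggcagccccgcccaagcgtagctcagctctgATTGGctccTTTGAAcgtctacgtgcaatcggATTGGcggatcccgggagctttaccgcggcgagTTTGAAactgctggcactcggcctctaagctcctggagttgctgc
Cdc20 at chr4:118437314-118437463, minus strand: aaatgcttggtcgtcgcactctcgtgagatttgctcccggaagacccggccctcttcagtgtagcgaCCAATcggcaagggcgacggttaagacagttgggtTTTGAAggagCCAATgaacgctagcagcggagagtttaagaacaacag
Cdca8 at chr4:124936888-124937037, minus strand: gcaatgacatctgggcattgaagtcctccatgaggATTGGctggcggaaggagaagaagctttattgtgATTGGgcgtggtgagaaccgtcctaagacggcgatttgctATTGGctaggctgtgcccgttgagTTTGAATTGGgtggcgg
Cenpa at chr5:30666766-30666915, plus strand: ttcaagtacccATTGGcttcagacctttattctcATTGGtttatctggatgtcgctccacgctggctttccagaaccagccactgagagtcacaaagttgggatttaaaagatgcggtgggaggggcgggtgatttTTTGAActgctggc
Bub1 at chr2:127831830-127831979, minus strand: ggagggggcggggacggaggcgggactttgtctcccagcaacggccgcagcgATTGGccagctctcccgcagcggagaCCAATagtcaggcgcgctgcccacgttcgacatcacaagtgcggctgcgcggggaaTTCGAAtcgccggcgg
Top2a at chr11:99024160-99024309, minus strand: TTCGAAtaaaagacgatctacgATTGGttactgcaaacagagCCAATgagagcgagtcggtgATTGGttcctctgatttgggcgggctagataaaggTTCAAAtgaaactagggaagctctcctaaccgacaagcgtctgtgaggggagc
Ube2c at chr2:164769809-164769958, plus strand: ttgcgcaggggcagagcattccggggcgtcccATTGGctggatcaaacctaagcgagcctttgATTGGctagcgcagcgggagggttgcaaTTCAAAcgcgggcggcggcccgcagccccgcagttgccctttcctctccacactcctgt
Ttk at chr9:83834569-83834718, plus strand: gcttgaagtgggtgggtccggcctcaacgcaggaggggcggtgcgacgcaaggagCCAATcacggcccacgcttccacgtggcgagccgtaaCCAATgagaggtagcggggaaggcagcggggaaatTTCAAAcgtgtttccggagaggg
Kif11 at chr19:37376262-37376411, plus strand: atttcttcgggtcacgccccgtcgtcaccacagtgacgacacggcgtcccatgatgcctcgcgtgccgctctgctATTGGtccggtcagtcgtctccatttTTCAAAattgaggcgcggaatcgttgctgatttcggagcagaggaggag
Racgap1 at chr15:99651627-99651776, minus strand: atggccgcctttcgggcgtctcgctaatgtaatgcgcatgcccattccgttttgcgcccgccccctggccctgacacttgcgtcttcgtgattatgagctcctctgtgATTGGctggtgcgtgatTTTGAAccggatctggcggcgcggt
Kif2c at chr4:117178743-117178892, minus strand: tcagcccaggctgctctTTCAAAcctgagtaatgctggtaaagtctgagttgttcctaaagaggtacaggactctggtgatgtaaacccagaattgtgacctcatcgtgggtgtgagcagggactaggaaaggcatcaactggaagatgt
Mki67 at chr7:135716350-135716499, minus strand: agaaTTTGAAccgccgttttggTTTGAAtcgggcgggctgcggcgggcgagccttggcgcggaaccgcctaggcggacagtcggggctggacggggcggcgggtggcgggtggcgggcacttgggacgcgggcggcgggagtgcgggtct

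TTTGAA was present on either strand in 23 of the 30 member promoters (76.7%), against 4893 of 27025 RefSeq promoters of the same length (18.1%). TTCGAA was present in 3 of 30 (10.0%) against 1.57%, and 1 or the other CHR form in 24 of 30 (80.0%) against 19.4%. CCAAT was present in 25 of 30 (83.3%) against 37.9%, and 22 of 30 (73.3%) held both a CHR and a CCAAT, against 7.70% of all promoters. The 2 E2F motifs searched, TTTGGCGC and TTTCCCGC, were in none of the 30, and in 0.537% and 1.11% of all promoters. Of 34 CHR matches, 23 began within 50 bases of the start, a window chosen after the positions were seen. 22 of 30 members had such a match, against 5.29% of all promoters. CCAAT matches numbered 61, of which 58 began upstream. As the search covered 250 bases upstream and 50 downstream, most matches would begin upstream wherever they fell. The upstream share over all promoters was not counted. Cdca8 had a TTTGAA and a reverse CCAAT that share letters. In the windows searched, Birc5, Ccnb1, Cenpe, Mad2l1, Nek2 and Nusap1 had no CHR, and Birc5, Mad2l1 and Nusap1 had no CCAAT either. A match is a description of the letters in this window and shows no binding.

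**Figure D1:**
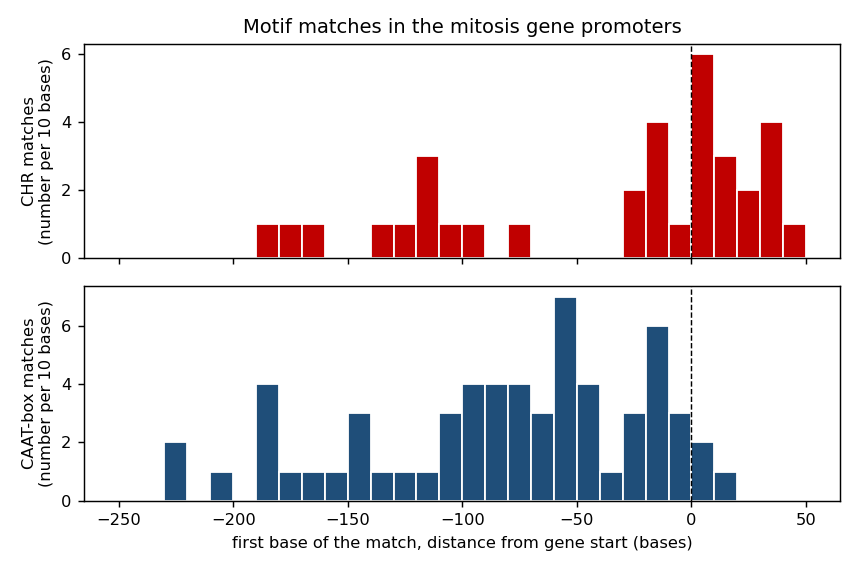
Distance of the first base of each CHR match (top) and each CCAAT match (bottom, CAAT box) from the annotated gene start, in bins of 10 bases, in 30 mitosis gene promoters. CHR matches gather around the start (23 of 34 within 50 bases), and 58 of 61 CCAAT matches lie upstream of it. The search covered 250 bases upstream and only 50 downstream, so most matches would lie upstream in any case.

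KO and WT kidneys were then compared gene by gene. No mitosis gene passed the test: 0 of 34 had a limma adjusted p under 0.05, where 301 of 13982 genes (2.15%) did (1.61% of the 13982 higher and 0.544% lower in KO). Small differences toward lower levels in KO were common among them. The difference, KO minus WT, was below 0 for 30 of 34 members (88.2%), against 40.7% of all genes, and its median was -0.13, against 0.03 over all genes tested. At an unadjusted p under 0.05, 2 members were lower and none higher (5.88% of 34, against 3.38% of all genes in the lower direction). In 1 member the groups did not overlap, against 2.45% of all genes that were lower without overlap and 9.25% in either direction. Both shares rest on 1 or 2 genes. Differences of single members ranged from -0.36 for Kif2c to 0.02 for Anln, with standard errors of 0.09 to 0.17. The lowest bound of a 95% interval was -0.65 (Kif20a). Members share the same 8 RNA samples and vary together across them, and they are not independent replicates of a condition.

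**Figure D2:**
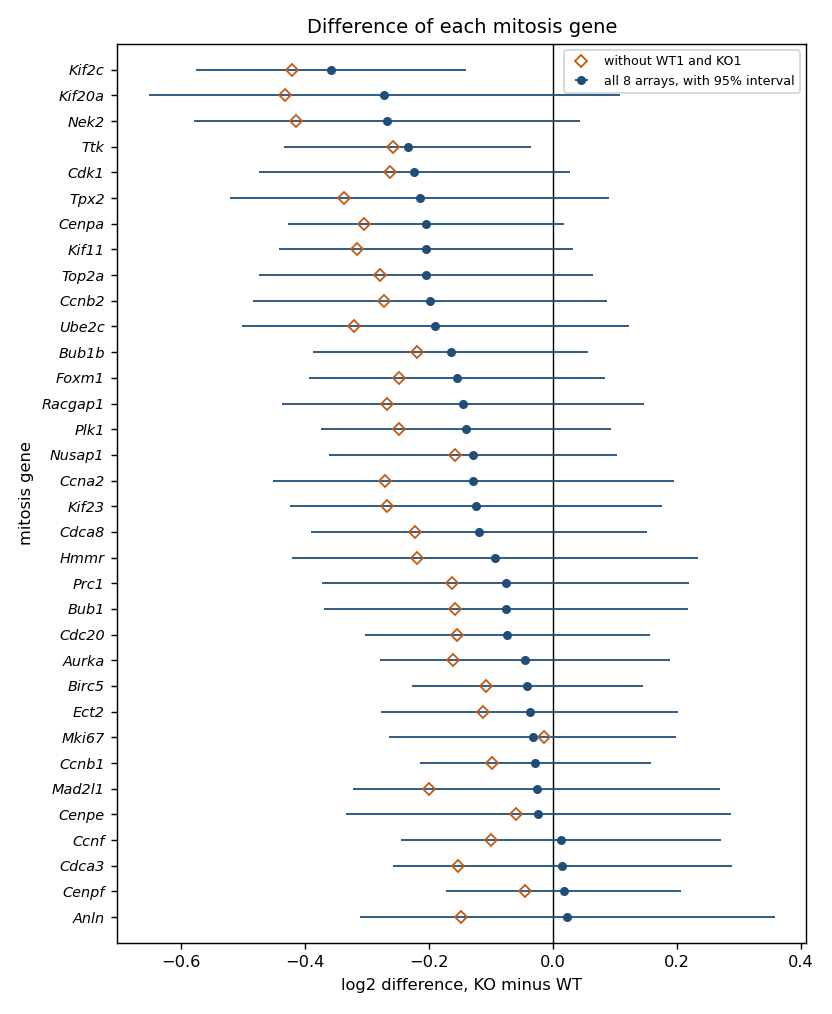
Log2 difference, KO minus WT, of each of the 34 measured mitosis genes, with its 95% interval from limma (filled circles, 4 arrays per group), and the same difference without the WT1 and KO1 arrays (open diamonds, 3 arrays per group). The filled circles run from -0.36 to 0.02, 2 intervals exclude 0, and all 34 diamonds lie below 0.

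The 4 members listed as kinesin motors were the role group with the lowest median difference (-0.24). Cenpe, a kinesin listed with the kinetochore genes, differed by -0.023. Kinesins among the further mitosis genes differed by -0.19 (Kif15) to -0.0081 (Kifc1). Kif2c, a kinesin that takes tubulin off microtubule ends and corrects faulty attachments at centromeres, had the smallest p of all members. Kif2c had log2 ratios of -0.016, 0.28, 0.028 and 0.094 on WT1 to WT4 and of -0.18, -0.15, -0.47 and -0.24 on KO1 to KO4. At this brighter of its 2 probes each KO array was thus below each WT array, with KO3 the lowest and WT2 the highest. The difference was -0.36 ± 0.10 (SE; 0.780-fold, adjusted p = 0.0995). With the replicate number as a block in the model it passed (SE 0.09, adjusted p = 0.0490), where 3.98% of all genes passed, 0.794% of all being lower in KO. The dimmer Kif2c probe gave -0.20, and there the groups overlapped, with WT2 (-0.17) below KO1 (-0.14) and KO4 (-0.084). Kif11 had log2 ratios of 0.060, 0.36, 0.21 and 0.43 on WT1 to WT4 and of 0.19, 0.11, -0.18 and 0.11 on KO1 to KO4. Kif11, the motor that pushes spindle poles apart, was lowest on KO3, and the groups overlapped, with WT1 below 3 of the KO arrays (difference -0.20 ± 0.11, adjusted p = 0.424). Kif20a and Kif23, motors of the central spindle and of cytokinesis, differed by -0.27 ± 0.17 and -0.12 ± 0.14. Kif20a had the lowest single value of any member, -0.68 on KO3.

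Among the spindle checkpoint genes, Ttk, which encodes the kinase MPS1 that starts checkpoint signalling at unattached kinetochores, had the other unadjusted p under 0.05. Ttk had log2 ratios of 0.11, -0.0091, -0.076 and 0.23 on WT1 to WT4 and of -0.054, -0.19, -0.23 and -0.21 on KO1 to KO4. The groups overlapped, as KO1 lay above WT3, and the difference was -0.23 ± 0.092 (adjusted p = 0.247). The Ttk probe was dim, with red signals of 85 to 168 units on the 6 arrays of low background. Bub1b encodes BUBR1, a part of the inhibitor that holds back the anaphase promoting complex. Bub1b had log2 ratios of -0.10, 0.023, -0.14 and 0.12 on WT1 to WT4 and of -0.11, -0.051, -0.42 and -0.18 on KO1 to KO4. KO3 was the low array and WT4 the high one, with wide overlap (difference -0.16 ± 0.10, adjusted p = 0.504). Bub1 and Mad2l1, 2 further checkpoint components, differed by -0.076 ± 0.14 and -0.026 ± 0.14. The 3 kept probes of Mad2l1 disagreed in size, with -0.03 at the brightest and -0.31 and -0.08 at the others.

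Cyclins and CDK1, the engine of mitotic entry, had a median difference of -0.13 over 5 genes. Cdk1 had log2 ratios of 0.13, -0.046, 0.15 and 0.55 on WT1 to WT4 and of 0.025, -0.070, 0.019 and -0.083 on KO1 to KO4. WT4 alone was high, the KO values lay close together, and the groups overlapped (difference -0.22 ± 0.12, adjusted p = 0.409). This Cdk1 probe was also dim, with red signals of 91 to 181.5 units on the 6 low-background arrays, and 2 further Cdk1 probes were not well above background anywhere. Ccnb2 had log2 ratios of -0.023, 0.27, 0.090 and 0.30 on WT1 to WT4 and of -0.00060, 0.067, -0.43 and 0.20 on KO1 to KO4. For Ccnb2, a B-type cyclin, KO3 stood below all other arrays while KO4 lay among the WT values (difference -0.20 ± 0.13, adjusted p = 0.543). Ccna2, the cyclin of S phase and G2, ranged from -0.35 on KO3 to 0.50 on WT4 and differed by -0.13 ± 0.15. Ccnb1 differed by -0.028 ± 0.086 at its brightest probe and by -0.27 and -0.18 at the 2 others, so the choice of probe sets its size. Ccnf, an F-box protein named for its cyclin box, differed by 0.013 ± 0.12.

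Foxm1, the forkhead factor that activates many of these genes, followed the same order of arrays. Foxm1 had log2 ratios of -0.062, 0.17, 0.15 and 0.33 on WT1 to WT4 and of 0.063, 0.15, -0.24 and 0.0015 on KO1 to KO4. WT4 was highest and KO3 lowest, and the groups overlapped (difference -0.16 ± 0.11, adjusted p = 0.580; -0.26 at its dimmer probe). Cdca3, an F-box-like protein linked to the destruction of the mitosis inhibitor WEE1, had another order of arrays. Cdca3 had log2 ratios of -0.52, -0.23, 0.085 and -0.065 on WT1 to WT4 and of 0.0019, -0.14, -0.32 and -0.21 on KO1 to KO4. WT1 was its lowest array, and the difference was 0.015 ± 0.13.

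Neither of the 2 usual markers of proliferation passed. Mki67 had log2 ratios of -0.26, 0.10, -0.29 and -0.13 on WT1 to WT4 and of -0.35, -0.13, -0.043 and -0.19 on KO1 to KO4. Mki67, the gene of the Ki-67 antigen that coats mitotic chromosomes, was highest on WT2 and lowest on KO1, with the groups interleaved (difference -0.033 ± 0.11, 95% interval -0.26 to 0.20; -0.12 at its other kept probe). Top2a had log2 ratios of -0.34, 0.25, -0.23 and -0.0071 on WT1 to WT4 and of -0.31, -0.11, -0.32 and -0.40 on KO1 to KO4. Top2a, the topoisomerase that untangles sister chromatids, was highest on WT2 and lowest on KO4, and the groups overlapped (difference -0.20 ± 0.12, adjusted p = 0.496).

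Of the mitotic kinases, Nek2, which splits centrosomes, differed most. Nek2 had log2 ratios of -0.13, 0.22, 0.017 and 0.40 on WT1 to WT4 and of 0.040, -0.016, -0.53 and -0.049 on KO1 to KO4. KO3 was far below the other KO arrays, and WT4 was the highest (difference -0.27 ± 0.14, adjusted p = 0.429). Plk1 had log2 ratios of -0.30, 0.12, -0.031 and 0.052 on WT1 to WT4 and of -0.11, -0.082, -0.37 and -0.15 on KO1 to KO4. Plk1, a kinase needed from entry to cytokinesis, overlapped between groups, with WT1 and KO3 both low (difference -0.14 ± 0.11, adjusted p = 0.622). Aurka, the spindle pole kinase, had its lowest value on WT1 (-0.59) and differed by -0.045 ± 0.11. In the chromosomal passenger complex, which corrects attachments and then guides cytokinesis, Cdca8 (borealin) and Birc5 (survivin) were measured. Cdca8 had log2 ratios of -0.29, 0.29, -0.055 and 0.29 on WT1 to WT4 and of -0.10, 0.013, -0.11 and -0.056 on KO1 to KO4. Birc5 had log2 ratios of -0.24, 0.016, -0.074 and -0.035 on WT1 to WT4 and of -0.083, -0.094, -0.22 and -0.11 on KO1 to KO4. In both genes WT1 was lowest and WT2 or WT4 highest, and the KO values lay within the range of the WT arrays (differences -0.12 ± 0.12 and -0.041 ± 0.086). Aurkb, the kinase of the same complex, was the gene not well above background.

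Centromere and kinetochore genes had no order of arrays in common. Cenpa had log2 ratios of -0.27, 0.13, -0.071 and 0.029 on WT1 to WT4 and of -0.18, -0.14, -0.38 and -0.30 on KO1 to KO4. Cenpa, the histone variant that marks centromeres, was low on KO3 and KO4 and on WT1 (difference -0.20 ± 0.10, adjusted p = 0.392). Cenpf had log2 ratios of 0.011, 0.099, 0.14 and 0.041 on WT1 to WT4 and of 0.21, 0.16, 0.045 and -0.059 on KO1 to KO4. Cenpf, a large kinetochore protein, had a dim probe (red signals of 89 to 132.5 units on the 6 low-background arrays) and no order by group (difference 0.017 ± 0.087). Cenpe, the kinesin that brings chromosomes to the spindle equator, had its highest value on WT2 (0.46) and differed by -0.023 ± 0.14.

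The 2 partners of the anaphase promoting complex among the members were Ube2c, its ubiquitin-conjugating enzyme, and its activator Cdc20. Ube2c had log2 ratios of -0.028, 0.16, -0.11 and 0.32 on WT1 to WT4 and of 0.18, -0.059, -0.52 and -0.0087 on KO1 to KO4. Cdc20 had log2 ratios of 0.047, 0.37, 0.091 and 0.40 on WT1 to WT4 and of 0.22, 0.14, -0.0083 and 0.26 on KO1 to KO4. Both were highest on WT4 and lowest on KO3, more markedly so in Ube2c, and both overlapped (differences -0.19 ± 0.14 and -0.074 ± 0.11). A second Ube2c probe gave -0.18. Among microtubule binding proteins, Tpx2 activates Aurora A on the spindle and Nusap1 bundles microtubules near chromosomes. Tpx2 had log2 ratios of -0.070, 0.36, 0.024 and 0.44 on WT1 to WT4 and of 0.082, 0.11, -0.38 and 0.090 on KO1 to KO4. KO3 was the only KO array below 0 for Tpx2 (difference -0.21 ± 0.14, adjusted p = 0.538; 0.02 at a second, dim probe). Nusap1 had log2 ratios of 0.018, -0.11, -0.17 and 0.11 on WT1 to WT4 and of -0.024, -0.099, -0.44 and -0.10 on KO1 to KO4. For Nusap1 too KO3 was the low array and WT4 the high one (difference -0.13 ± 0.11). Hmmr and Prc1, which focus spindle poles and cross-link the central spindle, differed by -0.094 ± 0.15 and -0.076 ± 0.14. Of the cytokinesis genes, Racgap1 and Ect2 control RhoA at the future cleavage site and Anln (anillin) scaffolds the contractile ring. Racgap1 had log2 ratios of -0.18, 0.31, 0.0023 and 0.29 on WT1 to WT4 and of 0.038, 0.16, -0.35 and -0.0066 on KO1 to KO4. Ect2 had log2 ratios of -0.21, -0.29, -0.21 and -0.0045 on WT1 to WT4 and of -0.026, -0.18, -0.50 and -0.16 on KO1 to KO4. KO3 was lowest in both, WT4 was highest for Ect2 and WT2 for Racgap1 (differences -0.15 ± 0.13 and -0.038 ± 0.11). Anln differed by 0.023 ± 0.15, with -0.62 on KO3 and -0.40 on WT1. Of the 12 further kept probes of 10 members, 11 were lower in KO, from -0.31 to 0.02, and none passed when every kept probe was tested.

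**Figure D3:**
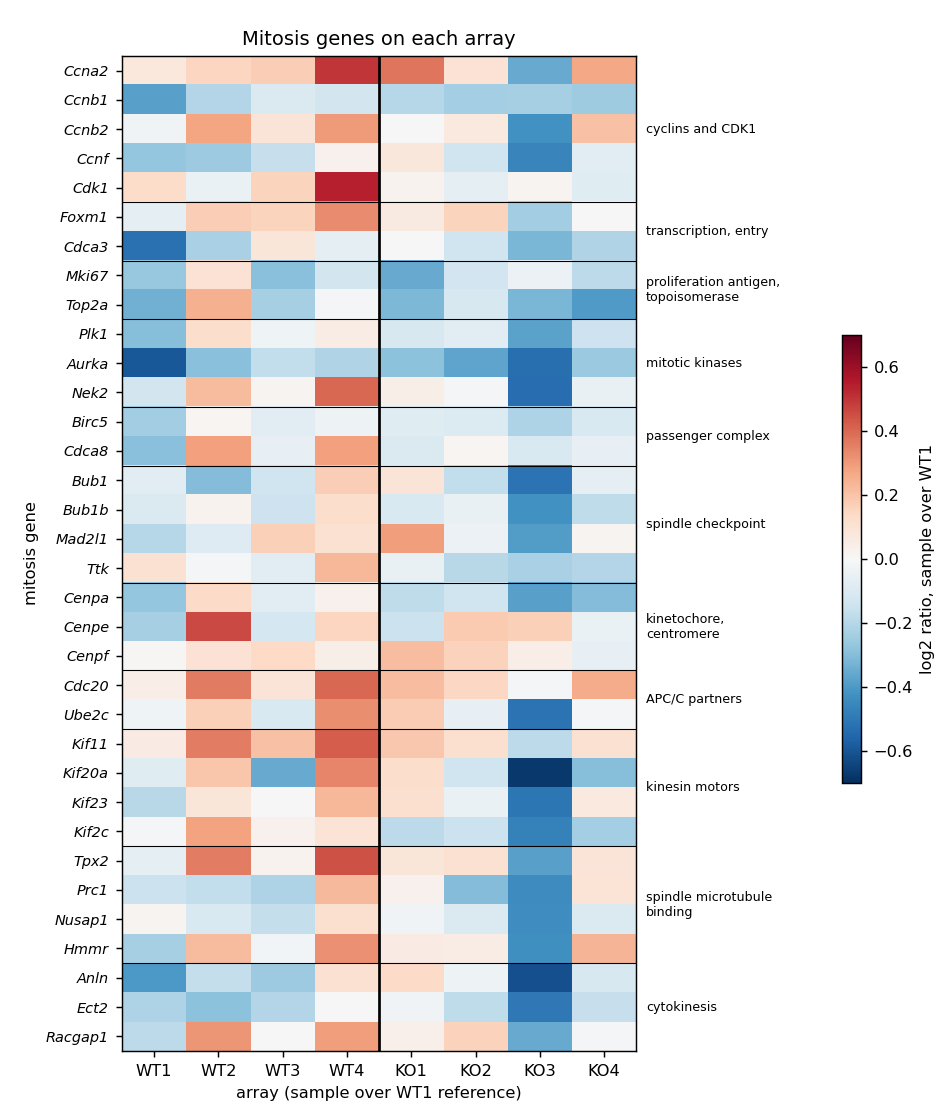
Log2 ratio, sample over the WT1 reference, of the 34 measured mitosis genes (rows, grouped by role) on the 8 arrays (columns, WT left and KO right of the black line); red is higher and blue lower than the reference. The KO3 column is blue in nearly every row, the WT4 column is mostly red, and the WT1 column is mostly blue although both colours held WT1 RNA.

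Seen by array, WT1, WT4 and KO3 stood out. The median over the 34 members was -0.17, 0.11, -0.06 and 0.16 on WT1 to WT4 and 0.03, -0.06, -0.38 and -0.07 on KO1 to KO4. The 2 groups thus overlapped widely, and KO3 stood below all other arrays. KO3 was the lowest KO array in 28 of 34 members and WT4 the highest WT array in 21. Over the 13982 genes tested, KO3 was lowest in 4978 and WT4 highest in 4257. Genes with a missing value in the group were not counted there. WT1 was the lowest WT array in 24 members. Both colours held the same RNA on that array, and its median of -0.17, beside -0.07 over all genes, was further from 0 than the median group difference of -0.13.

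Leaving arrays out moved the list in opposite directions. Without KO3 the median difference was -0.05 and 22 of 34 members were lower in KO, against 0.04 and 5584 of 13982 over all genes. Without WT4 it was -0.05 with 25 members lower, against 0.04 and 5212 over all genes. Without WT1 it was -0.19, and all 34 members were lower, against 0.0098 and 6631 over all genes. Leaving out the arrays of high background, WT1 and KO1, gave a median of -0.22, against 0.02 over all genes, with all 34 members lower, against 45.5% of all genes. With the sex of the embryo as a term, where WT2 alone stands for WT males, the members' median was -0.20 with 26 lower. Over all genes that fit gave 0.03 with 6277 lower. Without WT1 and KO1 again no member passed in limma (smallest adjusted p = 0.119 for Kif2c), while 1.76% of all genes did. At an unadjusted p under 0.05, 6 members (17.6%) were lower, against 4.62% of all genes: Kif2c (-0.42), Nek2 (-0.41), Kif11 (-0.32), Cenpa (-0.30), Ttk (-0.26) and Plk1 (-0.25). In 9 members the 3 KO arrays lay below the 3 WT arrays, against 7.85% of all genes. These were the same 6 genes and Foxm1 (-0.25), Birc5 (-0.11) and Ccnb1 (-0.10). At the other kept probes of Kif2c, Foxm1 and Ccnb1 the groups overlapped on these arrays, and at that of Birc5 they did not.

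Other genes of the cell cycle were counted in the same way. Of 68 further mitosis genes measured, among them kinetochore, condensin and kinesin genes, 55 were lower in KO, against 40.7% of all genes. Their median difference was -0.12, and none passed in limma, against 2.15% of all genes. At an unadjusted limma p under 0.05, 5 were lower and 1 higher, against 3.38% and 11.1% of all genes. The smallest p values were those of Cep55, which acts in abscission (-0.33 ± 0.11, adjusted p = 0.144), Pttg1, the gene of securin, which was higher (0.35 ± 0.11, adjusted p = 0.154), and Troap (-0.31 ± 0.11, adjusted p = 0.172). With the replicate block 1 of the 68 passed, Cep55 (limma adjusted p = 0.0499). In that fit 3.98% of all genes passed, 0.794% of all being lower in KO. Without WT1 and KO1, 62 of the 68 were lower (45.5% of all genes), with a median of -0.20. Of them, 14 were lower at an unadjusted limma p under 0.05 (4.62% of all genes). Without KO3 the median was -0.07, with 49 lower. Of 39 genes of S phase and DNA replication, 32 were lower, against 40.7% of all genes. Their median difference was -0.14, and none passed, against 2.15% of all genes. At an unadjusted limma p under 0.05, 7 were lower and 1 higher, against 3.38% and 11.1% of all genes. Gins2 differed by -0.26 ± 0.082 (adjusted p = 0.136) and Mcm7 by -0.25 ± 0.088 (adjusted p = 0.195). Mcm3 was higher, by 0.76 ± 0.24 (limma adjusted p = 0.151), and passed with the block (limma adjusted p = 0.0496). With the block it was the 1 gene of the 39 that passed, against 3.98% of all genes. WT3 alone was at -1.40 for Mcm3, and without it the difference was 0.46. For the S phase genes, leaving out WT1 and KO1 gave 38 of 39 lower, against 45.5% of all genes, and a median of -0.22. Of the 39, 15 were lower at an unadjusted limma p under 0.05, against 4.62% of all genes. Without KO3 their median was -0.07 with 29 lower, and without WT4 it was -0.09 with 31 lower. KO3 was the lowest KO array in 49 of the 68 and in 28 of the 39 genes, against 4978 of the 13982 genes tested. WT4 was the highest WT array in 35 and in 17, against 4257 of all genes tested. On KO1 and KO4 the S phase medians were -0.10 and -0.22, where those of the mitosis genes were 0.03 and -0.07.

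Among regulators of the cell cycle, 1 gene passed, higher in KO, where 2.15% of all genes passed (1.61% higher and 0.544% lower). Of 17 further subunits and partners of the anaphase promoting complex and checkpoint, 11 were lower (40.7% of all genes) and none passed. Their median was -0.03. At an unadjusted limma p under 0.05, 2 were higher, against 11.1% of all genes. The smallest p values there were those of Cdc16 (0.23 ± 0.097), Anapc11 (0.21 ± 0.092) and Mad2l1bp (0.18 ± 0.098). Of 21 DREAM, MuvB, Myb and E2F-Rb genes, 13 were lower, against 40.7% of all genes, and none passed. Their median was -0.02. At an unadjusted limma p under 0.05, 1 was lower, against 3.38% of all genes. E2f5 (-0.28 ± 0.12), E2f1 (-0.21 ± 0.10) and Rb1 (0.14 ± 0.083) had the smallest p values. Of 7 G1 cyclins and kinases, 5 were lower, against 40.7% of all genes, and none passed in limma, adjusted or not. Ccnd1 differed by -0.14 ± 0.090, Cdk2 by -0.12 ± 0.096 and Cdk4 by -0.070 ± 0.090. Of 13 CDK inhibitors and other brakes, 9 were higher, against 59.3% of all genes, 3 of them at an unadjusted p under 0.05, against 11.1% of all genes, and Cdkn1a was the gene that passed. Cdkn1a had log2 ratios of 0.023, -0.085, 0.067 and -0.11 on WT1 to WT4 and of 0.48, 0.60, 1.13 and 0.71 on KO1 to KO4. Each KO array was above each WT array, and KO3 was the highest. Cdkn1a, which encodes the CDK inhibitor p21 and is a target of p53, rose by 0.76 ± 0.13 (adjusted p = 0.0106). It passed with each array left out in turn (adjusted p from 0.00564 to 0.0435). It did not pass in limma with the sex of the embryo as a term (0.81 ± 0.21, adjusted p = 0.189), with median centring in place of loess (0.80 ± 0.31, adjusted p = 1.00) or with the red channel alone (0.75 ± 0.25 relative to all genes, adjusted p = 0.889). Cdkn2b (0.26 ± 0.096) and Cdkn2d (0.26 ± 0.11) did not pass. The lists hold genes chosen by name with earlier results of these data known, and their counts are descriptions.

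Markers of several cell types also differed between arrays. Proximal tubule genes, 16 of 16 measured, were higher in KO in 16 of 16, against 59.3% of all genes, with a median difference of 0.43. None passed the adjusted p, against 1.61% of all genes that passed higher. At an unadjusted limma p under 0.05, 10 were higher, against 11.1% of all genes. In 5 the groups did not overlap, against 9.25% of all genes in either direction. Their array medians were -0.72 to -0.08 in WT and -0.08 to 0.65 in KO. WT4, high for mitosis genes, was their lowest WT array in 16 of 16, against 2578 of the 13982 genes tested. KO3, low for mitosis genes, was their highest KO array in 15, against 4352. Nephron progenitor genes, 12 of 12 measured, had array medians of -0.08 to 0.19 in WT and of -0.59 to -0.32 in KO. These medians were also lowest on KO3 and highest on WT4. Of the 12, 6 passed, all lower in KO, against 0.544% of all genes. Erythroid genes, 8 of 10 measured, had medians of -0.41 to -0.02 in WT and -0.49 to 0.36 in KO. KO3 was their lowest KO array in 7, against 4978 of the 13982 genes tested. Stroma genes, 10 of 10, ran from -0.14 to 0.02 in WT and from 0.24 to 0.51 in KO. Of these, 5 passed, all higher in KO, against 1.61% of all genes. Macrophage and leukocyte genes, 7 of 8 measured, were higher in KO in 7 of 7, against 59.3% of all genes. In 6 of them the groups did not overlap, against 9.25% of all genes in either direction. Of the 7, 4 passed, all higher, against 1.61% of all genes. Their array medians were -0.17 to -0.06 in WT and 0.31 to 0.38 in KO, with a median difference of 0.47. Of 12 ureteric bud and collecting duct genes 1 passed, higher in KO (1.61% of all genes). Their medians ran from -0.16 to -0.03 in WT and from -0.11 to 0.20 in KO. No gene passed among 8 endothelial genes (5 higher in KO), 7 podocyte genes (4 higher) and 3 neuronal and adrenal genes (3 higher). Of all genes, 59.3% were higher and 2.15% passed. The part of these markers in the difference of the mitosis genes was not tested.

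**Figure D4:**
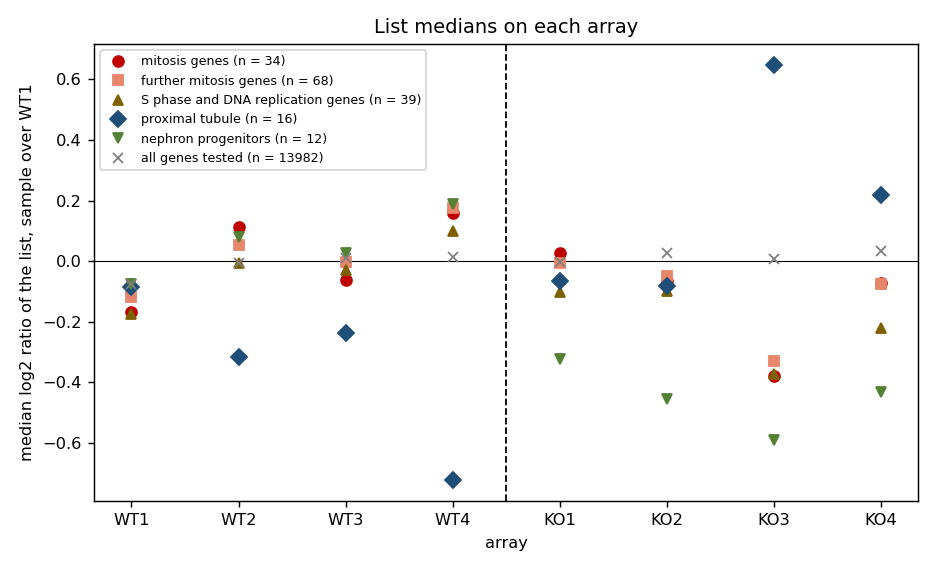
Median log2 ratio, sample over the WT1 reference, of 6 gene lists on each of the 8 arrays (points, with the number of genes in the key; WT left and KO right of the dashed line). The mitosis, further mitosis and S phase lists each have their lowest median on KO3, where the proximal tubule median is highest (0.65).

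The median of the members lay between -0.22 and -0.05 in every setting that kept the ratio to the reference, single arrays left out included. With the red channel alone, the all-gene median itself moved to 0.22, and relative to it the median of the mitosis genes was 0.03, with 16 of 34 lower. Without WT1 and KO1 the red channel alone gave a relative median of -0.22 with 31 lower.

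**Figure D5:**
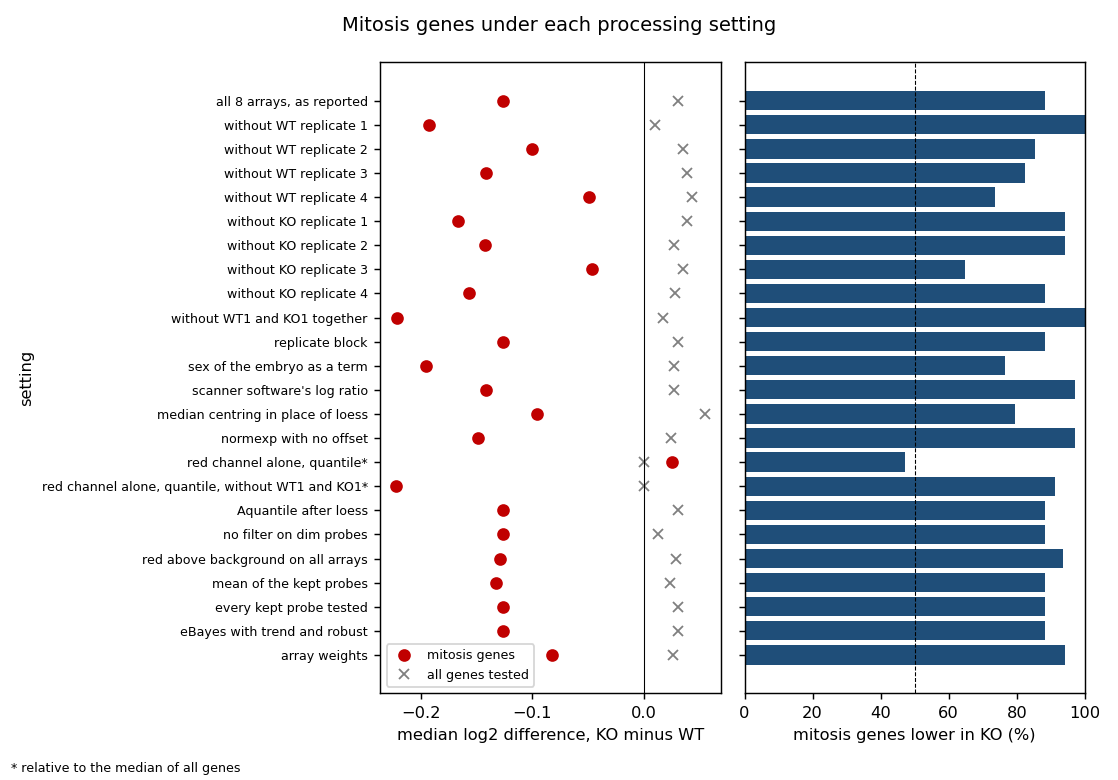
Left, median log2 difference, KO minus WT, of the mitosis genes (circles) and of all genes tested (crosses) under each processing setting; right, share of the measured mitosis genes that were lower in KO, in percent, with a dashed line at 50. An asterisk marks values relative to the median of all genes. The median is -0.05 without KO3 and without WT4, and 0.03 with the red channel alone.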

How the data were processed

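RNA of 8 whole-kidney samples, 4 WT and 4 KO, was hybridised to Agilent 2-colour arrays on 1 slide, with the sample in Cy5 and WT1 RNA in Cy3 on every array. Groups and replicate numbers came from the labels, and the series' design text calls the samples biological replicates. Per the file headers, the deposited scanner files hold median red and green intensity values and a log10 ratio made by Agilent Feature Extraction 10.7.3.1, whose dye-normalized signals the software computed. The deposited value table on a log10 scale matched that ratio within 0.00500 on every array, so its direction is Cy5 over Cy3, and each of its columns had a median of 0; how the authors chose it is not given in the sources used here.

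From the intensities, log2 ratios were computed with limma 3.58.1 in R 4.3.3: normexp background correction with an offset of 50, loess within arrays, control spots at weight 0, outlier readings (0.372%) dropped, and spots of a probe averaged. A probe was kept where red was well above background on at least 4 of 8 arrays. RefSeq accessions were named through the RefSeq annotation of GRCm38.p6 (27509 of 29150 matched), and the brightest kept probe stood for a gene. KO and WT were compared with lmFit and eBayes over 13982 genes, at a threshold of 0.05 on the Benjamini-Hochberg adjusted p. Errors are standard errors of the fitted difference. The number of arrays limits the precision.

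Same-numbered WT and KO samples deviated together (correlations across genes of 0.138, 0.373, 0.257 and 0.304). So did some pairs with different numbers (WT4 and KO1 at 0.369, WT2 and KO3 at 0.309, WT4 and KO2 at 0.116), while others ran as low as -0.560. The number is also the slide column, so a fit with it as a block is given where it changes a call. Values were printed on every array for the 2 members of smallest p in each role, for Mki67, Top2a, Cdk1 and Foxm1, and for any member that passed or whose groups did not overlap. Of each further list the genes that passed, or the 3 of smallest p, are named. Members and lists were chosen with earlier results of these data known. Alternatives were single arrays left out, WT1 and KO1 left out, the block, a sex term, and other background corrections, normalizations, filters and probe rules. The red channel alone, eBayes with trend and robust variances, and array weights were also run.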

Additional observations from a re-analysis of the deposited data

Results flagged for a closer look

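Within the groups of 4 arrays, 3 of 70 sets of values had a single array far from the others, by the gap to its nearest neighbour relative to the whole range; chance alone gives about 1 in 20. Nek2 on KO3 was at -0.53, with the other KO arrays at -0.05 to 0.04. Tpx2 on KO3 was at -0.38, with the others at 0.08 to 0.11. Prc1 on WT4 was at 0.23, with the other WT arrays at -0.22 to -0.15. These are the same 2 arrays that were lowest and highest in most members.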

How the results depend on the processing

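The precision of 4 arrays per group limits all of these values, and a difference of the median size (-0.13) is close to the median standard error of a member (0.12). Of the alternatives, the red channel alone without WT1 and KO1, and all those for the counts of members lower in KO and for the genes of the further lists, were added after seeing the data. The number of mitosis genes called was 1 (Kif2c) with the replicate block and 0 under all other alternatives. Over all genes, 556 were called with the block, 12 with the sex term, 123 from the scanner software's ratio, 0 with median centring (178 at an unadjusted limma p under 0.05), 139 with normexp without offset, 1 with the red channel alone, 145 with the red channel alone without WT1 and KO1, and 454 with array weights, against 301. With 1 array left out, 83 (without KO4) to 345 (without KO1) were called. The members' median ranged from -0.19 (without WT1) to -0.05 (without KO3) and the number lower from 22 to 34. With the red channel alone 16 members were lower and their relative median was 0.03, after the all-gene median had shifted by 0.22. Cdkn1a did not pass with the sex term (0.81), median centring (0.80) or the red channel alone (0.75), and passed under every other alternative run for it.

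Differences of single members kept their direction and their side of the threshold in 702 comparisons with an alternative and reversed in 76. Among the members Kif2c alone newly passed, with the block. The reversals named below also include 5 of genes from the further lists (Cdk4, Cdkn2b, Cdk2, Cdkn2d and Cdc16), which are not among the 76. Without WT1 and KO1 the reversed differences were those of Ccnf (-0.10), Cdca3 (-0.15), Cenpf (-0.045) and Anln (-0.15). With the sex term they were Cdk1 (0.019), Bub1 (0.14), Mad2l1 (0.061), Cenpf (-0.0090), Prc1 (0.016) and Ect2 (0.072). The software's ratio gave Ccnf -0.031, Cenpf -0.22 and Anln -0.014. Median centring gave Mki67 0.023, Birc5 0.029, Cenpe 0.012 and Cdk4 0.012. Without offset the values were Ccnf -0.026, Cdca3 -0.0083 and Cenpf -0.062, and with array weights Cdca3 -0.050 and Cenpf -0.011. The red channel alone, relative to all genes, gave Foxm1 0.26, Top2a 0.76, Plk1 0.13, Aurka 0.52, Nek2 0.23, Cdca8 0.16, Bub1 0.13, Bub1b 0.38, Mad2l1 0.25, Cenpa 0.0085, Cenpe 0.043, Cenpf -0.41, Kif11 0.056, Kif23 0.42, Hmmr 0.60, Ect2 0.31, Cdkn2b -0.13 and Cdk2 0.22. Without WT1 and KO1 it gave Ccnf -0.32, Cdca3 -0.19, Mki67 0.024, Cenpe 0.019, Anln -0.27, Cdkn2d -0.080 and Cdc16 -0.095. With 1 array left out, ranges that crossed 0 were those of Ccnf (-0.064 to 0.12), Cdca3 (-0.097 to 0.10), Cenpf (-0.024 to 0.067), Anln (-0.074 to 0.18), Mki67 (-0.082 to 0.050), Cenpe (-0.12 to 0.11), Ccnb1 (-0.088 to 0.0065), Aurka (-0.14 to 0.011), Mad2l1 (-0.13 to 0.094), Bub1 (-0.16 to 0.041), Prc1 (-0.16 to 0.026), Ect2 (-0.10 to 0.057), Ccna2 (-0.22 to 0.021), Kif23 (-0.20 to 0.014) and Hmmr (-0.19 to 0.042). Aquantile leaves ratios as they are by construction. The block, eBayes with trend and robust variances, and testing every kept probe leave the members' fitted differences as they are. The counts of comparisons above include all of these settings, so part of the 702 could not have changed direction. Without the filter on dim probes the members' median also stayed at -0.13, with 30 lower. The causes of these changes were not tested.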
